A study of Mus musculus with 59 samples.

Results

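The genes described here are the nuclear-encoded subunits of mitochondrial complex I in the prefrontal cortex of young mice. Members were taken by name: every identifier whose mouse symbol starts with Nduf followed by a, b, c, s or v and a digit, plus Ndufab1, with the assembly factors (Ndufaf genes) left out. The set itself was chosen with earlier results of these data known. The rule took 42 of 51456 identifiers. Of these, 40 had a mean value of at least 10 and were tested among 16919 genes. The other members, Ndufa11b (mean 0.184) and Ndufs6b (listed at 0), are annotated as processed pseudogenes and were not tested.

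Mice labelled heterozygous for Ank2 (HT) and wild-type mice (WT), all of strain C57BL/6J, received fluoxetine, lithium or vehicle through maternal milk from postnatal day 3 to 24, a span of 3 weeks, and were analysed on day 25. The groups were HT fluoxetine, HT lithium and HT vehicle (10 libraries each, 5 female and 5 male), and WT fluoxetine (9 libraries, 5 female and 4 male), WT lithium and WT vehicle (10 each, 5 female and 5 male). Fluoxetine blocks serotonin reuptake, lithium is a mood stabiliser, and Ank2 encodes the scaffold protein ankyrin-B. The labels give neither the drug doses nor whether each library is a separate animal, so p-values measure the spread between libraries.

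Complex I, NADH:ubiquinone oxidoreductase, takes electrons from NADH, passes them along iron-sulfur clusters in its matrix arm to ubiquinone, and pumps protons through its membrane arm. Its catalytic core is shared with bacteria and is split between nuclear genes, which encode the matrix arm core, and mitochondrial DNA, which encodes the membrane arm core. The accessory subunits, all nuclear, surround that core and are needed for its assembly and stability, and neurons rely on oxidative phosphorylation for most of their ATP.

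Values are the estimates deposited for each gene, already scaled for library depth. Library sums ran from 30.3 M to 33.8 M (M, mega). Ank2 ranged from 17431 to 22813 in the 30 HT libraries and from 23284 to 35821 in the 29 WT libraries, so the genotypes did not overlap. Changes are differences of group means of log2(value + 1), averaged over the sexes, and a gene is called where its limma p, adjusted over all genes by Benjamini-Hochberg, is under 0.05. Forebrain markers were present in all groups, the summed excitatory neuron markers at 131047 or more in every library. Of the libraries, 2 stood apart. HT vehicle female replicate 1 had member values below those of its group, given beside the results it touches. HT fluoxetine female replicate 2 had a summed choroid plexus marker value of 78385, against medians of 168 to 245 in the 6 groups, and a summed dentate gyrus marker value of 7413, against medians of 353 to 438. Other markers differed there too, by their mean log2 deviation from their means over all libraries. It was 1.62 for oligodendrocytes, -0.66 for excitatory neurons, -0.49 for inhibitory neurons and -3.68 for olfactory bulb.

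By place in the complex, the members comprise 7 matrix arm core subunits, 9 matrix arm accessory subunits, 9 proximal and 11 distal membrane arm accessory subunits, and the acyl carrier subunit Ndufab1. Ndufa4 and Ndufa4l2 carry complex I names, but Ndufa4 is now placed in complex IV. Both are listed apart by place but stay in the counts of 40 members. Ndufb4c, Ndufa11b and Ndufs6b are pseudogene copies, of which Ndufb4c is also counted among the 40. Ndufb1-ps, counted with the distal arm, is annotated as a long non-coding RNA. Per kilobase of transcript, the mean value over all libraries was highest for Ndufa4 (9835 per kb), Ndufb9 (4648 per kb) and Ndufb8 (4331 per kb). It was lowest among tested members for Ndufa4l2, at 68.3 per kb.

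The promoters of 33 members were found in the RefSeq table of GRCm38.p6, which runs from 250 bases before the annotated start to 50 after it. On either strand, 21 of the 33 (63.6%) held a match to the core letters of NRF1, of ETS factors such as GABP (CCGGAAG) or of YY1 (AANATGGC), against 19.4% of the 27025 genes with a promoter. YY1 letters were in 12 members (36.4%, against 6.96% of all genes), NRF1 letters in 7 (21.2%, against 5.19%) and ETS letters in 4 (12.1%, against 9.93%). The ERR letters TNAAGGTCA were in 1 member, the GC box GGGCGG in 15 (45.5%, against 38.2%) and CCAAT in 10 (30.3%, against 41.1%). The 4 promoters below are shown because they hold these letters alone or together in members that fell after fluoxetine (Ndufs6, Ndufs8, Ndufs3) and in 1 that did not (Ndufa9); capitals mark NRF1, ETS and YY1 matches. They lie on the minus strand at chr13:73328433-73328732, chr19:3912725-3913024, chr2:90904672-90904971 and chr6:126849095-126849394, and read 5′ to 3′.
Ndufs6: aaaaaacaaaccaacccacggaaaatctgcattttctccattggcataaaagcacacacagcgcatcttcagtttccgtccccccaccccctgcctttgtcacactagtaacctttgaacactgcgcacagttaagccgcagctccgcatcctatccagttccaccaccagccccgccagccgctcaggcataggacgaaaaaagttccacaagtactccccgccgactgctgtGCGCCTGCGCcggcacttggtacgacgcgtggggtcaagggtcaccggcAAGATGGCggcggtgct
Ndufs8: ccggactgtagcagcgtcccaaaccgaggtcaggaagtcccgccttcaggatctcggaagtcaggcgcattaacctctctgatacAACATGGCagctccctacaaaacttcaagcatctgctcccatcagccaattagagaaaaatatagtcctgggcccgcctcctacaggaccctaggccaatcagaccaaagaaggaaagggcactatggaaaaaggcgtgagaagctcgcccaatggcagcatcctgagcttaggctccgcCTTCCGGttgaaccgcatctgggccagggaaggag
Ndufs3: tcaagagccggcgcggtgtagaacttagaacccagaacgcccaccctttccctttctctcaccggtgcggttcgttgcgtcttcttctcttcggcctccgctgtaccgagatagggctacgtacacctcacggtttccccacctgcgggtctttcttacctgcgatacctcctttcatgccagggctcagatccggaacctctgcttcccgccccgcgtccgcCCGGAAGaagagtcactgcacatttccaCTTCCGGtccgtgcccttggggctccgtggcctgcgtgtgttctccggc
Ndufa9: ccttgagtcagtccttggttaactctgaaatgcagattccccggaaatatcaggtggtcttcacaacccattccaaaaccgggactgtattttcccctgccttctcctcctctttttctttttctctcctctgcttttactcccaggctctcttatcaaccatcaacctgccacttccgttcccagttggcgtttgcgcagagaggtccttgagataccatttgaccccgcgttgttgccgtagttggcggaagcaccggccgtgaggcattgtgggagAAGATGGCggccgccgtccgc
Ndufs6 holds NRF1 and YY1 letters, Ndufs8 holds ETS and YY1 letters, and Ndufs3 holds ETS letters at 2 places. In Ndufa9 the only match is YY1, near the 3′ end of the window, as in Ndufs6. Among the 28 members with a promoter that fell after fluoxetine in both genotypes, 18 held NRF1, ETS or YY1 letters, and among the other 5 members 3 did. A match is a description of these windows and says nothing of binding.

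After fluoxetine, most complex I subunit mRNAs were lower in both genotypes. In HT mice 33 of 40 tested members fell (82.5%), against 7.38% of all tested genes called lower; in WT mice 34 of 40 fell (85%), against 7.78% of all tested genes. These counts include Ndufa4, placed in complex IV, in both genotypes and the pseudogene copy Ndufb4c in HT. No member rose in either genotype. The median member change was -0.20 in HT and -0.24 in WT on the log2 scale, where the median over all tested genes was 0.00 in both. In bulk tissue, fewer cells of a type and less RNA per cell cannot be told apart. Fluoxetine libraries lay wholly below vehicle libraries for 1 of 40 members in HT (19 without HT vehicle female replicate 1) and for 14 of 40 in WT. How many of all tested genes lay apart in this way was not computed. Without HT vehicle female replicate 1 the HT count of called members stayed at 33 lower (8.34% of all genes). The same 32 members fell in both, which is 97.0% of the HT list and 94.1% of the WT list. Across the 40 members the changes in HT and WT had a Spearman correlation of 0.81, a description over genes that share libraries within each genotype.

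**Figure D1:**
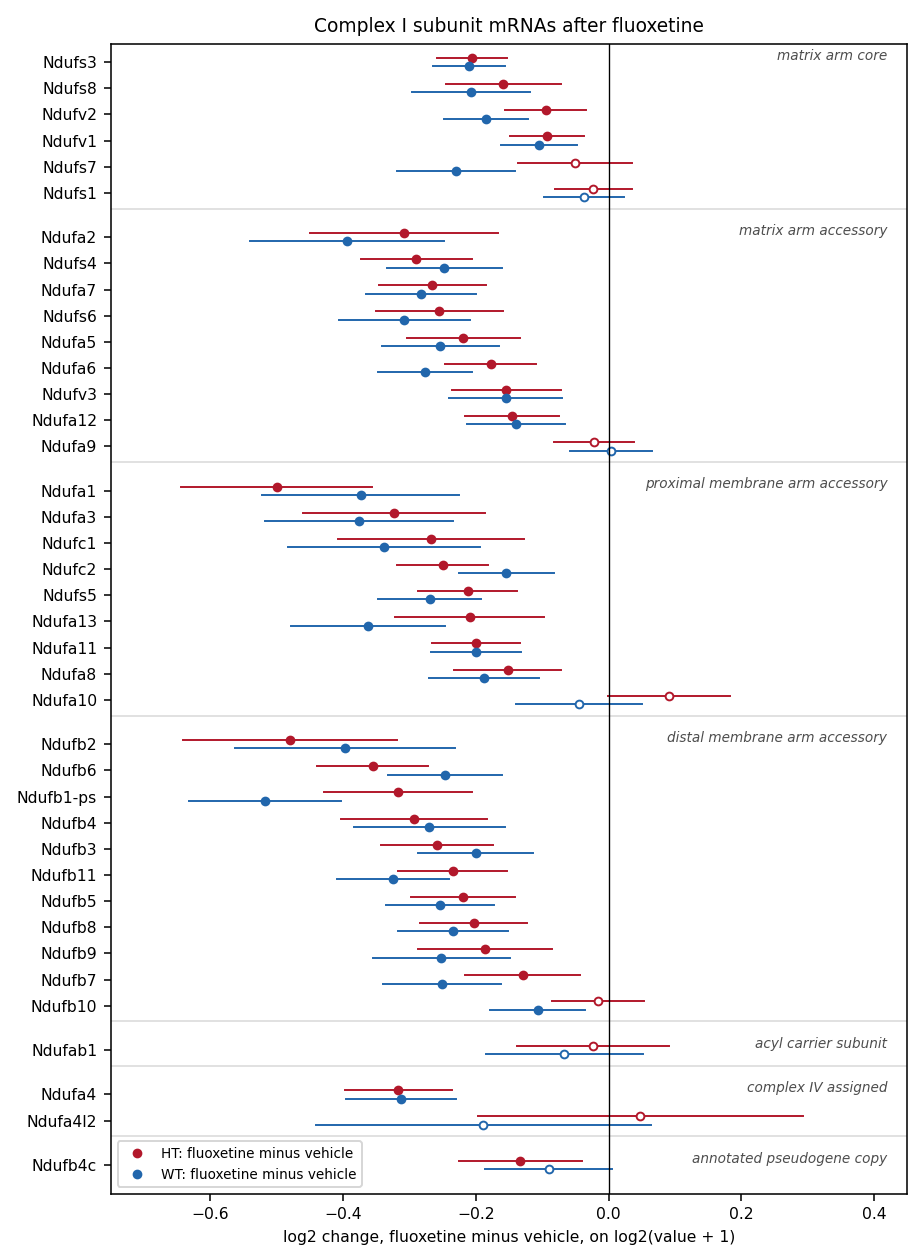
Log2 change (fluoxetine minus vehicle, x axis) of 39 tested members, grouped by place in the complex; points are estimates, bars 95% intervals, red HT, blue WT, filled where called. All filled points lie left of 0, between -0.09 and -0.52, and the members near 0 are open.

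The genotypes were set against each other with the interaction of fluoxetine and genotype. It called 0 of 40 members (0.0% of all genes; 5 members had an unadjusted limma p under 0.05; smallest adjusted p = 0.56). The interaction of fluoxetine with sex likewise called 0 members (0.0% of all genes; 1 had an unadjusted limma p under 0.05). Within sexes, HT females had 19 members lower (4.43% of all genes) and HT males 23 (2.39%). The HT female count includes HT vehicle female replicate 1, and a count without that library was not run for females alone. WT females had 30 lower (3.98%) and WT males 27 (3.32%).

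The matrix arm core holds the redox centres. Of its 7 genes, 5 fell in HT (median -0.09) and 6 in WT (median -0.19). Ndufs3, which joins the electron input and quinone modules, had the smallest p of the core in both genotypes. In HT mice Ndufs3 values ran from 1928 to 2200 (median 2073) after fluoxetine, from 2106 to 2645 (median 2298) after lithium and from 2073 to 2590 (median 2391) under vehicle. In WT mice Ndufs3 values ran from 1967 to 2153 (median 2094) after fluoxetine, from 2295 to 2586 (median 2456) after lithium and from 2297 to 2482 (median 2406) under vehicle. The WT fluoxetine and vehicle libraries did not overlap for Ndufs3, and in HT the overlap came from the 1 vehicle library that stood apart. Its change was -0.21 (SE 0.03, adjusted p = 1.4e-07) in HT and -0.21 (SE 0.03, adjusted p = 1.7e-07) in WT.

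Ndufs8, an iron-sulfur subunit next to the quinone site, changed by -0.16 in HT and -0.21 in WT. The median Ndufs8 value was 1452 (fluoxetine), 1649 (lithium) and 1674 (vehicle) in HT mice, and 1517 (fluoxetine), 1722 (lithium) and 1694 (vehicle) in WT mice. Ndufv1, which binds FMN and NADH, changed by -0.09 in HT and -0.10 in WT, and its partner Ndufv2, an iron-sulfur protein, by -0.09 in HT and -0.19 in WT. The median Ndufv1 value was 3479 (fluoxetine), 3706 (lithium) and 3731 (vehicle) in HT mice, and 3470 (fluoxetine), 3731 (lithium) and 3763 (vehicle) in WT mice. The median Ndufv2 value was 2373 (fluoxetine), 2417 (lithium) and 2481 (vehicle) in HT mice, and 2232 (fluoxetine), 2475 (lithium) and 2555 (vehicle) in WT mice. These 3 passed the test in both genotypes.

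Ndufs7, which carries the last iron-sulfur cluster before ubiquinone, passed the test in WT and not in HT, with a change of -0.05 (SE 0.04, adjusted p = 0.47) in HT and -0.23 (SE 0.04, adjusted p = 1.7e-04) in WT. The median Ndufs7 value was 1214 (fluoxetine), 1262 (lithium) and 1259 (vehicle) in HT mice, and 1149 (fluoxetine), 1296 (lithium) and 1286 (vehicle) in WT mice. Its interaction with genotype was not called (adjusted p = 0.56). Ndufs1, the largest core subunit, passed in neither genotype. In HT mice Ndufs1 values ran from 4128 to 4839 (median 4499) after fluoxetine, from 4258 to 4994 (median 4811) after lithium and from 4230 to 4778 (median 4556) under vehicle. In WT mice Ndufs1 values ran from 4339 to 4887 (median 4454) after fluoxetine, from 4451 to 5174 (median 4659) after lithium and from 4349 to 4841 (median 4670) under vehicle. Its fluoxetine and vehicle ranges overlapped in both, and the change was -0.02 (95% interval -0.08 to 0.04) in HT and -0.04 (95% interval -0.10 to 0.02) in WT.

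Of the 9 matrix arm accessory genes, 8 fell in each genotype, with a median of -0.22 in HT and -0.25 in WT. Ndufa6, an LYR-motif protein that anchors an acyl carrier subunit to the matrix arm, was among the 6 members with the smallest p in WT. In HT mice Ndufa6 values ran from 1288 to 1521 (median 1462) after fluoxetine, from 1264 to 1775 (median 1470) after lithium and from 1350 to 1719 (median 1641) under vehicle. In WT mice Ndufa6 values ran from 1291 to 1455 (median 1361) after fluoxetine, from 1479 to 1727 (median 1675) after lithium and from 1597 to 1758 (median 1628) under vehicle. No WT fluoxetine library reached the lowest WT vehicle library, whereas the HT groups overlapped at the vehicle library that stood apart. Its change was -0.18 (SE 0.03, adjusted p = 2.3e-04) in HT and -0.28 (SE 0.04, adjusted p = 1.5e-07) in WT.

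Ndufs4, needed to join the electron input module to the rest and mutated in Leigh syndrome, fell in both genotypes. In HT mice Ndufs4 values ran from 1299 to 1490 (median 1406) after fluoxetine, from 1383 to 1862 (median 1572) after lithium and from 1444 to 1914 (median 1729) under vehicle. In WT mice Ndufs4 values ran from 1246 to 1674 (median 1450) after fluoxetine, from 1624 to 1845 (median 1716) after lithium and from 1511 to 1810 (median 1718) under vehicle. In HT, 7 of 10 fluoxetine libraries lay below every vehicle library. The Ndufs4 change was -0.29 (SE 0.04, adjusted p = 1.8e-06) in HT and -0.25 (SE 0.04, adjusted p = 4.0e-05) in WT. Ndufs6, a zinc-binding subunit, and Ndufa12, which takes the place of an assembly factor late in assembly, belong to the same module. The median Ndufs6 value was 952 (fluoxetine), 1117 (lithium) and 1214 (vehicle) in HT mice, and 954 (fluoxetine), 1207 (lithium) and 1189 (vehicle) in WT mice. The median Ndufa12 value was 1705 (fluoxetine), 1878 (lithium) and 1889 (vehicle) in HT mice, and 1694 (fluoxetine), 1975 (lithium) and 1884 (vehicle) in WT mice. Ndufs6 changed by -0.25 in HT and -0.31 in WT, and Ndufa12 by -0.15 in HT and -0.14 in WT.

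Ndufa2, a thioredoxin-fold subunit, had the largest change of the matrix accessory genes, -0.31 (SE 0.07, adjusted p = 0.0018) in HT and -0.39 (SE 0.07, adjusted p = 9.6e-05) in WT. The median Ndufa2 value was 898 (fluoxetine), 1022 (lithium) and 1159 (vehicle) in HT mice, and 892 (fluoxetine), 1107 (lithium) and 1165 (vehicle) in WT mice. Ndufa7 changed by -0.27 in HT and -0.28 in WT, and Ndufa5 by -0.22 in HT and -0.25 in WT. The median Ndufa7 value was 978 (fluoxetine), 1122 (lithium) and 1209 (vehicle) in HT mice, and 958 (fluoxetine), 1203 (lithium) and 1173 (vehicle) in WT mice. The median Ndufa5 value was 1230 (fluoxetine), 1461 (lithium) and 1452 (vehicle) in HT mice, and 1201 (fluoxetine), 1506 (lithium) and 1430 (vehicle) in WT mice. Ndufv3, a small subunit of the NADH-binding module, changed by -0.15 in HT and -0.15 in WT. The median Ndufv3 value was 1177 (fluoxetine), 1199 (lithium) and 1345 (vehicle) in HT mice, and 1161 (fluoxetine), 1284 (lithium) and 1320 (vehicle) in WT mice. All 4 passed the test in both genotypes.

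Ndufa9, the nucleotide-binding subunit at the junction of the arms, was the matrix accessory gene that passed in neither genotype. In HT mice Ndufa9 values ran from 2404 to 2735 (median 2481) after fluoxetine, from 2433 to 2915 (median 2768) after lithium and from 2431 to 2709 (median 2562) under vehicle. In WT mice Ndufa9 values ran from 2335 to 2877 (median 2654) after fluoxetine, from 2498 to 2762 (median 2662) after lithium and from 2456 to 2817 (median 2585) under vehicle. The ranges of its 6 groups overlapped throughout. Its change was -0.02 (95% interval -0.08 to 0.04) in HT and 0.00 (95% interval -0.06 to 0.07) in WT, the smallest average change of the 40 members.

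**Figure D2:**
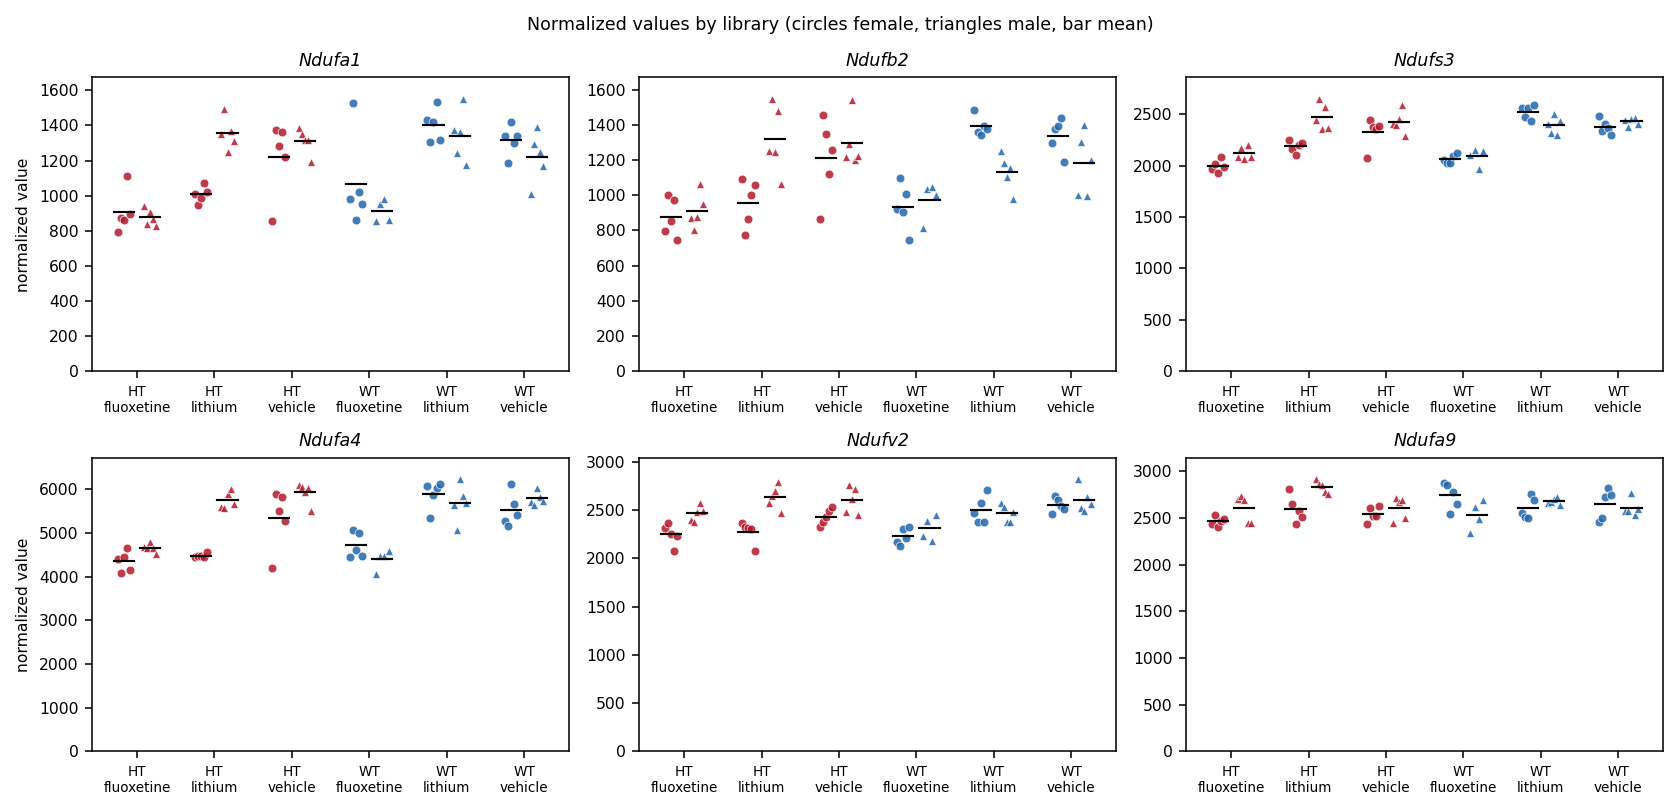
Normalized values (y axis, from 0) of 6 members in each library, by group (x axis) and sex (circles female, triangles male), with the mean of each sex as a bar. Ndufa1, Ndufb2, Ndufs3, Ndufa4 and Ndufv2 have lower group medians after fluoxetine than under vehicle in both genotypes. Their fluoxetine and vehicle libraries overlap in HT for each of these genes, and in WT for Ndufa1 and Ndufb2. Ndufa9 overlaps throughout, and HT lithium females lie near the fluoxetine libraries for Ndufa4.

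Of the 9 proximal membrane arm accessory genes, 8 fell in each genotype (median -0.21 in HT, -0.27 in WT). Ndufa1, a small X-linked membrane subunit, had the largest change of all members in HT. In HT mice Ndufa1 values ran from 792 to 1113 (median 870) after fluoxetine, from 945 to 1494 (median 1161) after lithium and from 858 to 1384 (median 1318) under vehicle. In WT mice Ndufa1 values ran from 857 to 1529 (median 950) after fluoxetine, from 1176 to 1549 (median 1368) after lithium and from 1011 to 1421 (median 1296) under vehicle. In WT the highest fluoxetine value was 1 female library at 1529, with the next at 1022. The Ndufa1 change was -0.50 (SE 0.07, adjusted p = 1.5e-06) in HT and -0.37 (SE 0.07, adjusted p = 2.5e-04) in WT.

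Ndufc2, which pairs with Ndufc1 in the membrane arm, was the member whose HT fluoxetine and HT vehicle libraries did not overlap. In HT mice Ndufc2 values ran from 1030 to 1168 (median 1113) after fluoxetine, from 1061 to 1408 (median 1221) after lithium and from 1198 to 1376 (median 1336) under vehicle. In WT mice Ndufc2 values ran from 955 to 1310 (median 1178) after fluoxetine, from 1250 to 1488 (median 1324) after lithium and from 1205 to 1397 (median 1286) under vehicle. Its change was -0.25 (SE 0.03, adjusted p = 6.1e-07) in HT and -0.15 (SE 0.04, adjusted p = 0.0016) in WT. Ndufc1 changed by -0.27 in HT and -0.34 in WT. The median Ndufc1 value was 594 (fluoxetine), 678 (lithium) and 765 (vehicle) in HT mice, and 615 (fluoxetine), 748 (lithium) and 765 (vehicle) in WT mice.

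Ndufs5, an intermembrane space subunit, fell in both genotypes. In HT mice Ndufs5 values ran from 1391 to 1644 (median 1542) after fluoxetine, from 1558 to 2082 (median 1796) after lithium and from 1546 to 1936 (median 1785) under vehicle. In WT mice Ndufs5 values ran from 1354 to 1675 (median 1543) after fluoxetine, from 1734 to 2209 (median 1944) after lithium and from 1762 to 1964 (median 1832) under vehicle. WT fluoxetine and vehicle libraries did not overlap, and in HT 5 of 10 fluoxetine libraries lay below all vehicle libraries. Its change was -0.21 (SE 0.04, adjusted p = 5.6e-05) in HT and -0.27 (SE 0.04, adjusted p = 1.1e-06) in WT. Ndufa8, likewise facing the intermembrane space, changed by -0.15 in HT and -0.19 in WT, and Ndufa11, a membrane subunit that contacts complex III in supercomplexes, by -0.20 in HT and -0.20 in WT. The median Ndufa8 value was 1889 (fluoxetine), 2074 (lithium) and 2088 (vehicle) in HT mice, and 1843 (fluoxetine), 2219 (lithium) and 2114 (vehicle) in WT mice. The median Ndufa11 value was 1232 (fluoxetine), 1363 (lithium) and 1429 (vehicle) in HT mice, and 1252 (fluoxetine), 1428 (lithium) and 1431 (vehicle) in WT mice. Both passed the test in each genotype.

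Ndufa13, also known as GRIM-19, changed by -0.21 in HT and -0.36 in WT, and Ndufa3, a small membrane subunit, by -0.32 in HT and -0.38 in WT; both passed in each genotype. The median Ndufa13 value was 1989 (fluoxetine), 2092 (lithium) and 2342 (vehicle) in HT mice, and 1845 (fluoxetine), 2355 (lithium) and 2416 (vehicle) in WT mice. The median Ndufa3 value was 1121 (fluoxetine), 1283 (lithium) and 1491 (vehicle) in HT mice, and 1100 (fluoxetine), 1397 (lithium) and 1444 (vehicle) in WT mice. Ndufa13 shares 375 of its exonic bases with Tssk6 on the opposite strand, whose mean value was 2.95. Ndufa10, a kinase-fold subunit on the matrix face, passed in neither genotype. In HT mice Ndufa10 values ran from 3016 to 3868 (median 3284) after fluoxetine, from 3112 to 3661 (median 3355) after lithium and from 2908 to 3276 (median 3174) under vehicle. In WT mice Ndufa10 values ran from 2570 to 3621 (median 3199) after fluoxetine, from 2972 to 3682 (median 3259) after lithium and from 3125 to 3630 (median 3286) under vehicle. It was higher on average in HT after fluoxetine, at 0.09 (95% interval -0.00 to 0.18), and near 0 in WT, at -0.04 (95% interval -0.14 to 0.05).

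Of the 11 distal membrane arm accessory genes, 10 fell in HT (median -0.23) and 11 in WT (median -0.25). Ndufb6 had the smallest p of all members in HT. In HT mice Ndufb6 values ran from 835 to 1007 (median 917) after fluoxetine, from 946 to 1302 (median 1141) after lithium and from 985 to 1320 (median 1197) under vehicle. In WT mice Ndufb6 values ran from 876 to 1174 (median 951) after fluoxetine, from 1109 to 1350 (median 1220) after lithium and from 1020 to 1255 (median 1125) under vehicle. In HT 9 of 10 fluoxetine libraries lay below all vehicle libraries. Its change was -0.36 (SE 0.04, adjusted p = 2.0e-08) in HT and -0.25 (SE 0.04, adjusted p = 4.0e-05) in WT. Of its exonic bases 39.0% overlap Smim27 on the opposite strand, which had a mean of 26.8.

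Ndufb1-ps had the largest change in WT. In HT mice Ndufb1-ps values ran from 832 to 1128 (median 1009) after fluoxetine, from 1004 to 1351 (median 1145) after lithium and from 772 to 1422 (median 1268) under vehicle. In WT mice Ndufb1-ps values ran from 840 to 1085 (median 925) after fluoxetine, from 1145 to 1399 (median 1229) after lithium and from 1227 to 1426 (median 1374) under vehicle. Every WT fluoxetine library lay below every WT vehicle library; in HT the ranges overlapped only through the vehicle library that stood apart, at 772. Its change was -0.32 (SE 0.06, adjusted p = 5.1e-05) in HT and -0.52 (SE 0.06, adjusted p = 6.5e-09) in WT. It shares 12.7% of its exonic bases with Cpsf2 on the opposite strand, which had a higher mean (2030 against 1165), and how the authors' counting used strand is not given in the sources used here.

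Ndufb11, encoded on the X chromosome, fell in both genotypes. In HT mice Ndufb11 values ran from 1513 to 1777 (median 1598) after fluoxetine, from 1528 to 1988 (median 1740) after lithium and from 1403 to 2093 (median 1960) under vehicle. In WT mice Ndufb11 values ran from 1473 to 1735 (median 1571) after fluoxetine, from 1808 to 2065 (median 1963) after lithium and from 1850 to 2053 (median 1954) under vehicle. As for Ndufb1-ps, the groups were apart in WT, and in HT they overlapped at 1 vehicle library. Its change was -0.23 (SE 0.04, adjusted p = 5.2e-05) in HT and -0.32 (SE 0.04, adjusted p = 2.0e-07) in WT. Ndufb2, a small membrane subunit, had a change of -0.48 (SE 0.08, adjusted p = 2.4e-05) in HT and -0.40 (SE 0.08, adjusted p = 4.9e-04) in WT. In HT mice Ndufb2 values ran from 746 to 1063 (median 875) after fluoxetine, from 772 to 1546 (median 1077) after lithium and from 866 to 1542 (median 1241) under vehicle. In WT mice Ndufb2 values ran from 747 to 1096 (median 1001) after fluoxetine, from 978 to 1483 (median 1296) after lithium and from 998 to 1439 (median 1300) under vehicle. In HT, 4 of 10 fluoxetine libraries lay below all vehicle libraries for Ndufb2.

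Among the remaining distal genes, all but Ndufb10 passed the test in both genotypes. Ndufb3 changed by -0.26 in HT and -0.20 in WT, Ndufb5 by -0.22 in HT and -0.25 in WT and Ndufb8 by -0.20 in HT and -0.23 in WT. The median Ndufb3 value was 1332 (fluoxetine), 1501 (lithium) and 1580 (vehicle) in HT mice, and 1389 (fluoxetine), 1620 (lithium) and 1573 (vehicle) in WT mice. The median Ndufb5 value was 1861 (fluoxetine), 2075 (lithium) and 2231 (vehicle) in HT mice, and 1819 (fluoxetine), 2174 (lithium) and 2214 (vehicle) in WT mice. The median Ndufb8 value was 2663 (fluoxetine), 2895 (lithium) and 3122 (vehicle) in HT mice, and 2663 (fluoxetine), 3207 (lithium) and 3098 (vehicle) in WT mice. Ndufb9, an LYR-motif protein that anchors the distal acyl carrier, changed by -0.19 in HT and -0.25 in WT, and Ndufb7, in the intermembrane space, by -0.13 in HT and -0.25 in WT. The median Ndufb9 value was 3040 (fluoxetine), 3225 (lithium) and 3357 (vehicle) in HT mice, and 2940 (fluoxetine), 3592 (lithium) and 3503 (vehicle) in WT mice. The median Ndufb7 value was 1240 (fluoxetine), 1323 (lithium) and 1366 (vehicle) in HT mice, and 1171 (fluoxetine), 1375 (lithium) and 1414 (vehicle) in WT mice. Ndufb10, also in the intermembrane space, fell in WT by the test, with a change of -0.02 (SE 0.03, adjusted p = 0.81) in HT and -0.11 (SE 0.04, adjusted p = 0.034) in WT. It passed in neither with the length and GC trend removed, where its change was 0.09 in HT and 0.05 in WT. The median Ndufb10 value was 2143 (fluoxetine), 2219 (lithium) and 2160 (vehicle) in HT mice, and 2005 (fluoxetine), 2316 (lithium) and 2193 (vehicle) in WT mice. Exonic bases are shared with another gene for Ndufb9 (19.5% with Gm49356, same strand, mean 7.91), Ndufb11 (12.9% with Rbm10, opposite strand, mean 1662) and Ndufb5 (12.3% with Mrpl47, opposite strand, mean 421).

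Ndufb4 and its pseudogene copy Ndufb4c (chr15:73809507-73809896, GRCm38, minus strand) are identical over all 390 bases of the copy, and the copy held 72.0% of their summed mean value, so the split between them is uncertain. Ndufb4 changed by -0.29 in HT and -0.27 in WT and Ndufb4c by -0.13 (SE 0.05, adjusted p = 0.044) in HT and -0.09 (SE 0.05, adjusted p = 0.22) in WT. Ndufb4c was called in neither with the length and GC trend removed (0.01 in HT, 0.10 in WT). The median Ndufb4 value was 323 (fluoxetine), 364 (lithium) and 412 (vehicle) in HT mice, and 345 (fluoxetine), 390 (lithium) and 405 (vehicle) in WT mice. The median Ndufb4c value was 915 (fluoxetine), 954 (lithium) and 994 (vehicle) in HT mice, and 927 (fluoxetine), 1034 (lithium) and 1002 (vehicle) in WT mice. Their sum averaged 1249 ± 68.3 after fluoxetine and 1415 ± 101 under vehicle in HT (SD, n = 10 each). In WT the sum averaged 1289 ± 82.3 after fluoxetine and 1419 ± 62.8 under vehicle (SD, n = 9 and 10).

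Ndufab1, the mitochondrial acyl carrier protein, which also serves fatty acid synthesis, passed in neither genotype. In HT mice Ndufab1 values ran from 1310 to 1636 (median 1467) after fluoxetine, from 1406 to 1728 (median 1556) after lithium and from 1264 to 1685 (median 1538) under vehicle. In WT mice Ndufab1 values ran from 1240 to 1966 (median 1546) after fluoxetine, from 1367 to 1670 (median 1533) after lithium and from 1309 to 1840 (median 1636) under vehicle. The ranges overlapped, with changes of -0.02 (95% interval -0.14 to 0.09) in HT and -0.07 (95% interval -0.18 to 0.05) in WT. Ndufa4, the complex IV subunit and the most abundant member, fell in both. In HT mice Ndufa4 values ran from 4093 to 4792 (median 4576) after fluoxetine, from 4449 to 6015 (median 5064) after lithium and from 4203 to 6088 (median 5853) under vehicle. In WT mice Ndufa4 values ran from 4058 to 5064 (median 4473) after fluoxetine, from 5061 to 6227 (median 5866) after lithium and from 5150 to 6117 (median 5689) under vehicle. Its change was -0.32 (SE 0.04, adjusted p = 1.2e-07) in HT and -0.31 (SE 0.04, adjusted p = 2.7e-07) in WT. Ndufa4l2, a paralog induced by hypoxia in other settings, was the least abundant tested member. In HT mice Ndufa4l2 values ran from 41.9 to 95.9 (median 61.9) after fluoxetine, from 51.9 to 96.1 (median 68.4) after lithium and from 49.6 to 73.3 (median 60.3) under vehicle. In WT mice Ndufa4l2 values ran from 43 to 79.9 (median 57) after fluoxetine, from 54.1 to 82.3 (median 62.8) after lithium and from 44.9 to 84.8 (median 67) under vehicle. Its groups overlapped, and its change was 0.05 (95% interval -0.20 to 0.29) in HT and -0.19 (95% interval -0.44 to 0.06) in WT.

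Complex I mRNAs are short, and the libraries differed in how values varied with transcript length across all genes. The 40 members had a median transcript length of 866 bases, against 2818 for all tested genes with a gene model, and 65% of members were under 1000 bases, against 7.96% of all genes. The slope of a library's log2 deviations on log2 length ran from -0.01 to 0.07 in HT fluoxetine libraries and from -0.06 to 0.07 in HT vehicle libraries, where HT vehicle female replicate 1 had the highest slope. It ran from 0.03 to 0.09 in WT fluoxetine libraries and from -0.06 to -0.01 in WT vehicle libraries. Over all tested genes the Spearman correlation of the fluoxetine change with length was 0.29 in HT and 0.45 in WT, and over the members 0.43 in each.

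With a smooth trend on transcript length and GC content removed from each library, fewer members passed. In HT 18 of 40 members fell (4.57% of all genes called lower), with a median change of -0.10. In WT 15 fell (2.87% of all genes), with a median of -0.09. Of the 21 members called in either genotype, 12 were called in both. Ndufb2 had the largest changes, -0.46 in HT and -0.38 in WT, followed by Ndufa1 at -0.34 in HT and Ndufb1-ps at -0.37 in WT. Ndufb2 was taken at an annotated length of 2413 bases, and how far its rank rests on that length was not tested. By place, 1 of 7 core genes fell in HT and 2 of 7 in WT, 5 and 4 of 9 matrix accessory genes, 4 and 4 of 9 proximal genes and 7 and 4 of 11 distal genes. Among the 14 members of 1000 bases or more, with Ndufb2 counted there, 10 fell in each genotype as deposited. Their median change was -0.12 in HT and -0.16 in WT. How far length and the drug each account for the lower values was not tested beyond these values.

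**Figure D3:**
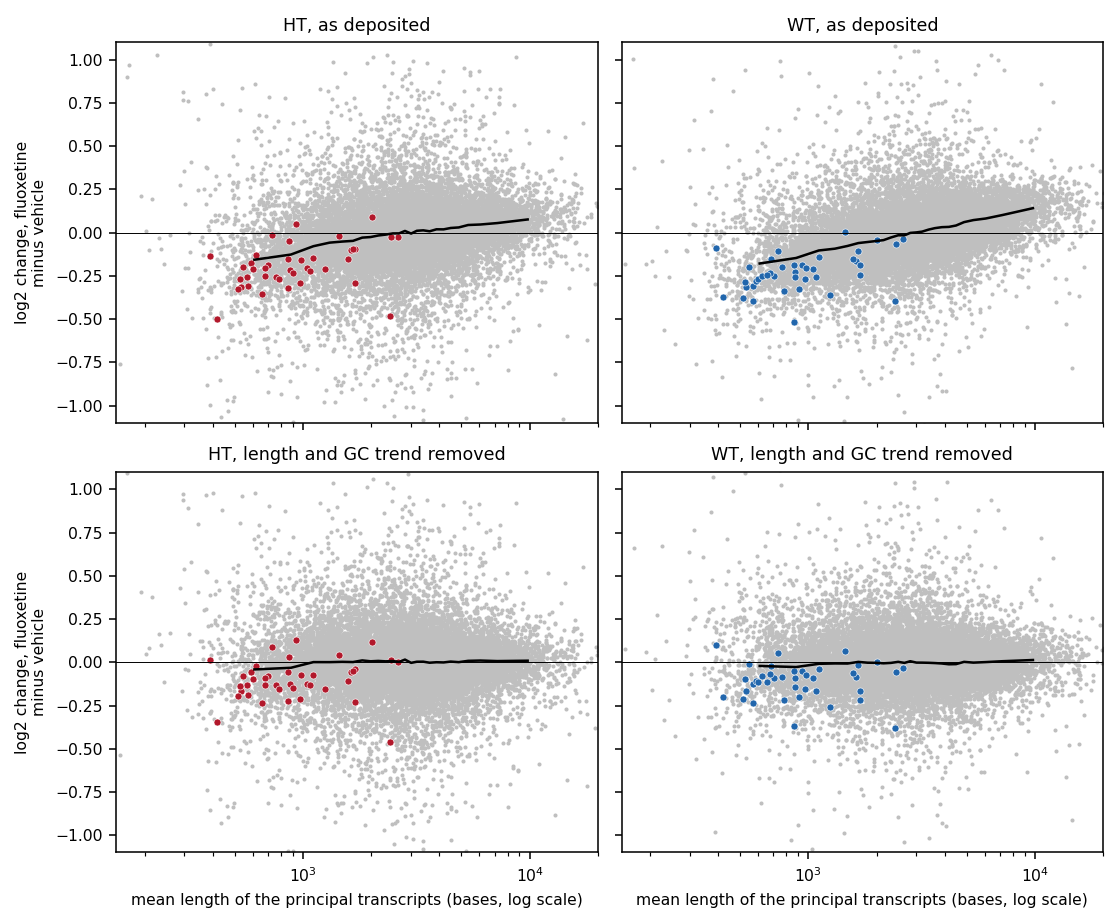
Log2 change after fluoxetine (y axis) against the median length of the principal transcripts in bases (x axis, log scale, labelled mean). Grey points are all tested genes, and values beyond the axes are not drawn. Coloured points are the members (red HT, left, and blue WT, right). The top panels are as deposited, and the bottom panels have the length and GC trend removed. The line joins medians of 25 equal bins. Members lie toward the short end and below 0 in the top panels, and nearer to 0 in the bottom panels, where the member medians are -0.10 in HT and -0.09 in WT.

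Members also varied together within groups. The mean pairwise correlation of members across libraries, after group means were taken out, was 0.31 (0.22 with the length and GC trend removed), against 0.00 for all tested genes (0.01). Ndufb8 correlated most with the other members (mean r 0.48), followed by Ndufb9 (0.45) and Ndufa2 (0.45). Ndufs1 did not move with them (mean r -0.04), and Ndufa4l2 (0.04), Ndufa10 (0.09) and Ndufv2 (0.10) were next lowest. These are descriptions over 59 libraries that share depth and composition. No other set of genes of like length and level was compared.

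**Figure D4:**
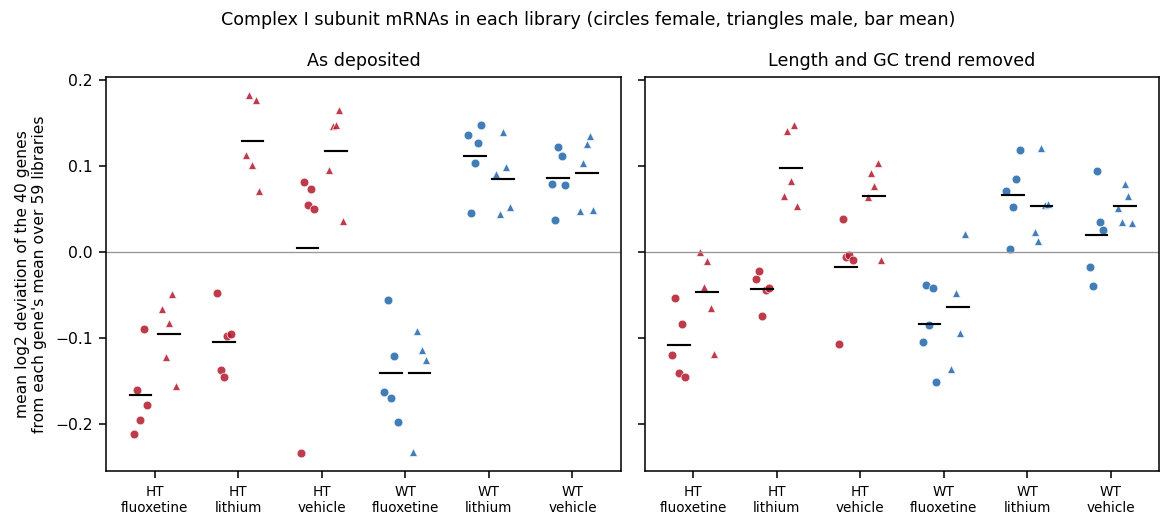
Mean log2 deviation of the 40 tested members from their means over 59 libraries (y axis), for each library by group and sex, as deposited (left) and with the length and GC trend removed (right); bars are means. As deposited, fluoxetine libraries lie between -0.23 and -0.05, and HT vehicle female replicate 1 lies at -0.23. HT lithium females lie between -0.15 and -0.05 and HT lithium males between 0.07 and 0.18. With the trend removed, HT fluoxetine runs from -0.15 to -0.0005 and HT vehicle from -0.11 to 0.10. WT fluoxetine then runs from -0.15 to 0.02 and WT vehicle from -0.04 to 0.09, so the ranges overlap in both genotypes.

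Lithium was compared with vehicle in the same way. In HT mice 1 of 40 members fell (2.26% of all genes called lower), with a median change of -0.06. This was Ndufa4, whose change by limma was -0.14 (SE 0.04, adjusted p = 0.028). Its lithium and vehicle values, given above, overlapped. As Ndufa4 is placed in complex IV, no gene placed in complex I was called here. Ndufa6 (-0.11 (SE 0.03, adjusted p = 0.057)) and Ndufb11 (-0.12 (SE 0.04, adjusted p = 0.075)) came next. Without HT vehicle female replicate 1, 12 members fell (4.44% of all genes), and without HT vehicle female replicate 2, 3 or 4, 0 did. With the length and GC trend removed 0 members fell (1.39% of all genes called lower) and 1, Ndufa9 (0.12), rose (3.29% called higher). In HT females 6 members fell (2.35% of all genes), with HT vehicle female replicate 1 among the vehicle libraries. In HT males 0 fell (0.0177% of all genes, with 3 members at an unadjusted limma p under 0.05).

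In WT mice lithium called 0 of 40 members, against 2.22% of all genes, with 5 members at an unadjusted limma p under 0.05 and a median of 0.01. The smallest p-values were those of Ndufb6 (0.11 (SE 0.04, adjusted p = 0.21)), Ndufs5 (0.09 (SE 0.04, adjusted p = 0.25)) and Ndufb1-ps (-0.12 (SE 0.06, adjusted p = 0.29)). The interaction of lithium with genotype called 0 members (0.0% of all genes; 8 at an unadjusted limma p under 0.05), and that of lithium with sex 0 (0.0%; 3 at an unadjusted p under 0.05).

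Fluoxetine libraries were also lower than lithium libraries. In HT 24 of 40 members were lower with fluoxetine than with lithium (6.88% of all genes called lower; median -0.15), and in WT 34 were (11.2%; median -0.25). Ndufs3 (-0.18 in HT, -0.24 in WT), Ndufb6 (-0.28, -0.35) and Ndufs5 (-0.22, -0.36) were among the smallest p-values in each. With the length and GC trend removed 16 were lower in HT (7.47% of all genes called lower; median -0.10) and 26 in WT (8.64%; median -0.13). In HT, as deposited, 1 member was lower in females (2.35% of all genes) and 26 were in males (3.98%). A difference between the sexes in this comparison was not tested. Length slopes ran from 0.00 to 0.06 in HT lithium females and from -0.06 to -0.02 in HT lithium males. These comparisons share the fluoxetine libraries with those against vehicle.

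HT and WT mice were compared within each treatment. Under vehicle 0 members were called (0.00591% of all genes; 1 at an unadjusted limma p under 0.05); among the smallest p-values were those of Ndufb1-ps (-0.12 (SE 0.06, adjusted p = 1)) and Ndufab1 (-0.11 (SE 0.06, adjusted p = 1)). Under fluoxetine 0 members were called (0.0118% of all genes; 3 at an unadjusted limma p under 0.05). Under lithium 2 fell in HT relative to WT (0.319% of all genes called lower): Ndufa4, -0.19 (SE 0.04, adjusted p = 0.019), and Ndufa6, -0.14 (SE 0.03, adjusted p = 0.047). With the length and GC trend removed 0 were called lower (0.0827% of all genes; 4 members at an unadjusted limma p under 0.05; smallest adjusted p = 0.15). Leaving out any 1 of 15 of the lithium libraries gave 1.

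Under lithium the genotypes differed in females and not detectably in males. In females 25 of 40 members were lower in HT (2.57% of all genes called lower; median -0.22), and in males 0 were called (0.0118% of all genes; 1 at an unadjusted limma p under 0.05; median 0.04). Ndufa4 ran from 4449 to 4566 (median 4462) in HT lithium females and from 5352 to 6115 (median 6035) in WT lithium females, and from 5563 to 6015 (median 5652) in HT lithium males and from 5061 to 6227 (median 5681) in WT lithium males. Ndufb2 ran from 772 to 1090 (median 1001) in HT lithium females and from 1342 to 1483 (median 1375) in WT lithium females, and from 1063 to 1546 (median 1253) in HT lithium males and from 978 to 1251 (median 1156) in WT lithium males. For both genes all 5 HT female libraries lay below all 5 WT female libraries, and the males overlapped. Ndufs3 ran from 2106 to 2245 (median 2200) in HT lithium females and from 2435 to 2586 (median 2557) in WT lithium females, and from 2352 to 2645 (median 2438) in HT lithium males and from 2295 to 2506 (median 2407) in WT lithium males. Ndufb6 ran from 946 to 1098 (median 957) in HT lithium females and from 1144 to 1344 (median 1268) in WT lithium females, and from 1184 to 1302 (median 1257) in HT lithium males and from 1109 to 1350 (median 1159) in WT lithium males. The female groups of Ndufs3 and Ndufb6 did not overlap either. All of these genes are also called by the sex contrast given next, from the same libraries, so their separation is not separate support. How many members or other genes lay apart in this way was not computed.

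The difference between the sexes in this genotype effect was tested as male minus female of HT minus WT under lithium, a contrast chosen after the values were seen. It called 10 of 40 members higher (0.567% of all genes called higher). They included Ndufb2 (0.76 (SE 0.16, adjusted p = 0.016)), Ndufa4 (0.41 (SE 0.08, adjusted p = 0.011)), Ndufb6 (0.41 (SE 0.08, adjusted p = 0.011)), Ndufs3 (0.25 (SE 0.05, adjusted p = 0.011)), Ndufs6 (0.39), Ndufa7 (0.35), Ndufa5 (0.35), Ndufa6 (0.30) and Ndufa12 (0.28). The length slopes moved with it: 0.00 to 0.06 in HT lithium females and -0.06 to -0.02 in HT lithium males, against -0.04 to -0.01 in WT lithium libraries of either sex. With the length and GC trend removed the contrast called 0 members (0.0% of all genes; 19 members at an unadjusted limma p under 0.05; smallest adjusted p = 0.075), with a median of 0.14. As deposited, leaving out 1 library gave 5 to 14 members.

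The other complex I genes were read in the same fit, as deposited. After fluoxetine it called 7.38% of all genes lower in HT and 7.78% in WT. Of 18 tested assembly factors, which build the complex and are not part of it, 3 fell in HT (median -0.07) and 3 in WT (median -0.07). In HT these were Dmac1 (-0.28), Ndufaf4 (-0.15) and Ndufaf5 (-0.11), and in WT Ndufaf3 (-0.30), Dmac1 (-0.17) and Tmem186 (-0.15). Of the 7 membrane arm core genes of the mitochondrial genome, 4 rose in HT (median 0.15) and 2 in WT (median 0.11), and 0 fell in either by limma. Over all 16919 tested genes, 1122 were called higher in HT and 1184 in WT. How the poly(A) protocol and the strand setting bear on these mitochondrial mRNAs was not tested. In HT mt-Nd4l (0.77), mt-Nd6 (0.53), mt-Nd5 (0.17) and mt-Nd4 (0.15) rose, and in WT mt-Nd4l (0.48) and mt-Nd6 (0.32). With lithium Foxred1 fell (-0.15) and mt-Nd6 rose (0.38) in HT, and Dmac2 fell (-0.18) in WT; mt-Nd6 was also higher in HT than in WT under lithium (0.51).

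The nuclear genes of the other respiratory complexes are set beside them, also as deposited after fluoxetine. The shares of all genes called lower were 7.38% in HT and 7.78% in WT. Counts for these complexes with the length and GC trend removed are not given here. In complex II 2 of 4 fell in HT (median -0.05; Sdhb -0.16, Sdhd -0.12) and 3 of 4 in WT (median -0.16; Sdhb -0.18, Sdhc -0.17, Sdhd -0.15). In complex III 5 of 9 fell in each genotype (median -0.21 in HT, -0.14 in WT). They were Uqcrh (-0.33 in HT, -0.30 in WT), Uqcr10 (-0.29, -0.37), Uqcr11 (-0.29, -0.35), Uqcrq (-0.23, -0.36) and Uqcrb (-0.21, -0.14). In complex IV 6 of 10 fell in HT (median -0.20) and 8 of 10 in WT (median -0.29). Cox7a2 (-0.48 in HT, -0.44 in WT), Cox7c (-0.30, -0.30), Cox6b1 (-0.27, -0.32), Cox6c (-0.24, -0.42) and Cox7b (-0.23, -0.29) fell in both, Cox5a (-0.17) in HT, and Cox8a (-0.32), Cox6a1 (-0.22) and Cox4i1 (-0.15) in WT. Of 15 ATP synthase genes 9 fell in HT (median -0.16) and 10 in WT (median -0.15). Atp5e (-0.60 in HT, -0.53 in WT), Atp5j2 (-0.30, -0.44), Atp5l (-0.28, -0.30), Atp5j (-0.24, -0.29), Atp5k (-0.22, -0.31), Atp5g3 (-0.18, -0.15), Atp5g1 (-0.16, -0.19), Atp5h (-0.13, -0.13) and Atp5c1 (-0.09, -0.10) fell in both, and Atp5d (-0.18) in WT. Under lithium Atp5e (-0.24), Uqcr10 (-0.25), Cox7a2 (-0.22) and Uqcrh (-0.17) were lower in HT than in WT.

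**Figure D5:**
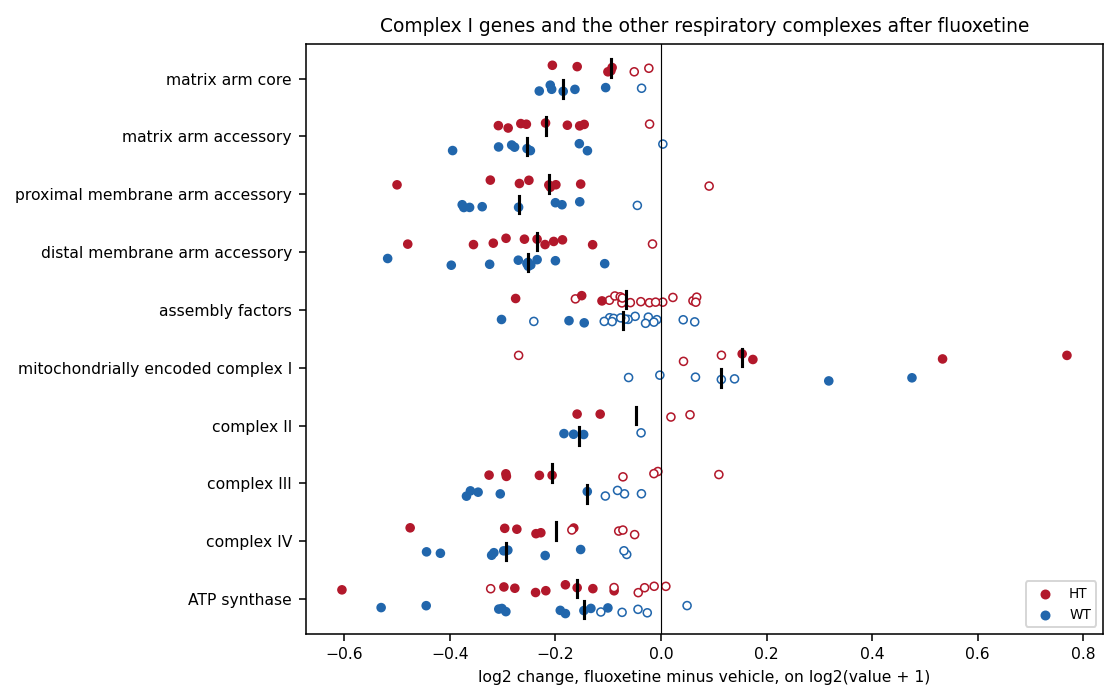
Log2 change after fluoxetine (x axis) of the genes of each list (rows), HT in red above WT in blue, filled where called; vertical bars are list medians. The membrane and matrix arm accessory lists have medians of -0.21 to -0.27, the assembly factors -0.07 in both genotypes, and the mitochondrially encoded genes 0.15 in HT and 0.11 in WT.

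Regulators and marks of mitochondrial content were read against 14.0% of all genes called in either direction after fluoxetine in HT and 14.8% in WT. Of 10 biogenesis regulators (median 0.02 in HT, 0.01 in WT), Esrra fell in HT (-0.12), and Ppargc1a (0.18) and Yy1 (0.11) rose in WT. Of 10 genes that mark mitochondrial mass (median 0.02 in HT, -0.02 in WT), Vdac3 fell in both (-0.13 in HT, -0.10 in WT). With lithium in WT, Gabpb1 fell (-0.18) and Yy1 rose (0.12).

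Cell type markers were read beside the fluoxetine results, and their part in them was not tested. Of 5 red blood cell genes 4 fell in HT (Hbb-bt -0.92, Hbb-bs -0.80, Hba-a2 -0.71, Hba-a1 -0.61) and 3 in WT (Hbb-bt -0.83, Hbb-bs -0.57, Hba-a2 -0.57). Their summed values ran from 4215 to 9942 after fluoxetine and from 8105 to 14634 under vehicle in HT, and from 5018 to 9015 after fluoxetine and from 6856 to 11690 under vehicle in WT. Among endothelial markers Cldn5 fell in both (-0.35 in HT, -0.25 in WT), Kdr fell in HT (-0.24) and Flt1 rose in WT (0.15). Csf1r, of microglia, rose in both (0.23 in each), and Camk2a, of excitatory neurons (0.27), and Aldoc, of astrocytes (0.23), rose in HT. Each was the only gene called after fluoxetine in its list of 6, so the list as a whole is not described by it. No marker of inhibitory neurons, oligodendrocytes, choroid plexus, dentate gyrus, olfactory bulb or striatum was called after fluoxetine. The smallest p-values there were, in HT, those of Slc32a1 (-0.18) and Vip (-0.22), Mobp (0.33) and Cnp (0.18), S100a5 (-2.45) and Vipr2 (-1.02), and Adora2a (-0.68) and Drd1 (-0.37), for inhibitory neurons, oligodendrocytes, olfactory bulb and striatum. For choroid plexus they were Kl (0.71) and Folr1 (0.82) and for dentate gyrus Prox1 (0.50) and Dsp (0.60), all with HT fluoxetine female replicate 2. Without that library Kl was at 0.16, Folr1 at 0.23, Prox1 at 0.14 and Dsp at -0.06, and again none of these lists' genes was called. Fluoxetine changes of the other marker genes in HT include that library, and their values without it are not given here. In WT the smallest p-values were those of Vip (-0.19) and Slc32a1 (-0.09), Mog (-0.11) and Mobp (0.05), Clic6 (-0.29) and Kl (0.19), Dsp (0.54) and Prox1 (0.20), Doc2g (-0.55) and Th (-0.33), and Ppp1r1b (0.22) and Rgs9 (0.11). Median changes of the 11 marker lists ran from -1.09 (olfactory bulb) to 0.71 (choroid plexus) in HT, where choroid plexus was at -0.05 and dentate gyrus at -0.06 (0.50 with it) without HT fluoxetine female replicate 2, and from -0.57 (red blood cells) to 0.20 (dentate gyrus) in WT. With lithium Pvalb rose in both genotypes (0.43 in HT, 0.46 in WT), and Flt1 rose in HT (0.18).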

How the data were processed

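RNA-seq of 59 prefrontal cortex libraries was analysed, each made with the TruSeq Stranded mRNA kit, a poly(A) protocol, per the labels. Per the submitters' processing notes, the tools were Salmon 0.11.2, R 3.6.0 and DESeq2 1.19.11 with GRCm38; their settings and the strand setting are not given in the sources used here. The deposited values are treated as a normalized signal: Salmon-type estimates on a scale where library sums are nearly equal. Whole reads could not be recovered from their steps (28.4% to 66.8% of low values within 0.1 of a whole step), so depth is unknown and no count test was run.

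Values were transformed as log2(value + 1). A mean of 10 or more was required, which kept 16919 genes; these were fitted with limma 3.58.1 (R 4.3.3; trended, robust) with 12 means for genotype, drug and sex and 47 residual degrees of freedom. Effects were averaged over sexes, and p-values were adjusted by Benjamini-Hochberg over all genes, with calls at 0.05, in 14 comparisons. Fold changes of low genes are understated on this scale. Symbols, positions and transcript lengths came from GENCODE M21; copies were found with BLAST+ 2.17.0. A smooth trend on length and GC (natural splines, 4 degrees of freedom) was removed per library as an alternative. Other alternatives were the filter, the scaling, the pseudocount, the groups fitted, each sex, the replicate block and leaving out libraries. The fit was tested on simulated data.

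Replicate numbers run alike in all groups, but they did not pair the libraries, so no block was used. The members and gene lists were chosen with earlier results of these data known. The values of 1 tested member and of 1 gene of another list are not reported here, though both stay in the counts. Group values are given for the other tested members: in full for those with the smallest p-values, those near 0 and those with a positive change, and as medians for most others. The genotype by sex contrast under lithium and the omission of the libraries that stood apart were chosen after seeing the data. Promoter sequences of 33 members came from RefSeq (GRCm38.p6); protein sequences were not used here.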

Additional observations from a re-analysis of the deposited data

Results flagged for a closer look

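Of 240 sets of values (40 members in 6 groups), 29 had a highest or lowest library far from the rest of its group by Dixon's criterion, which chance meets in about 1 of 20 groups. Of these, 18 were the lowest value of HT vehicle, all in female replicate 1. They were Ndufa1 at 858 (next 1190), Ndufa2 at 628 (next 1106), Ndufa3 at 839, Ndufa4 at 4203 (next 5275), Ndufa5 at 1141, Ndufa6 at 1350, Ndufa7 at 948, Ndufa12 at 1542 and Ndufa13 at 1558. The others were Ndufb1-ps at 772, Ndufb5 at 1721, Ndufb7 at 1090, Ndufb8 at 2446, Ndufb9 at 2364, Ndufb11 at 1403, Ndufc1 at 490, Ndufs6 at 876 and Ndufs8 at 1310. The same library had a length slope of 0.07, against -0.06 to -0.01 in the other 9 HT vehicle libraries.

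The other 11 were spread over libraries. In HT fluoxetine, female replicate 4 was highest for Ndufa1 (1113, next 942) and Ndufb9 (3502, next 3117), and male replicate 4 for Ndufv3 (1377, next 1206). In WT fluoxetine, female replicate 2 was highest for Ndufa1 (1529, next 1022), male replicate 4 for Ndufb6 (1174, next 982) and female replicate 5 for Ndufv3 (1273, next 1176), and male replicate 1 was lowest for Ndufa10 (2570, next 3115) and Ndufb9 (2369, next 2755). In WT lithium, male replicate 3 was highest for Ndufc2 (1488, next 1374) and female replicate 5 for Ndufv1 (4208, next 3817). In WT vehicle, male replicate 1 was highest for Ndufv2 (2818, next 2643).

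Under lithium, the HT minus WT difference was higher in males than in females for 10 members by limma's test of that difference. On the log2 scale, among those reported, it was 0.76 for Ndufb2, 0.41 for Ndufa4, 0.41 for Ndufb6, 0.39 for Ndufs6, 0.35 for Ndufa5, 0.35 for Ndufa7, 0.30 for Ndufa6, 0.28 for Ndufa12 and 0.25 for Ndufs3.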

How the results depend on the processing

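Over the alternatives run, the number of members lower after fluoxetine ranged from 18 to 33 of 40 in HT and from 15 to 34 in WT (33 and 34 as reported); where a value moved, the cause was not tested. With the length and GC trend removed, 18 members fell in HT and 15 in WT (16 in WT with the replicate block added), lithium in HT gave 0 lower and 1 higher, and HT against WT under lithium gave 0, as did its difference between sexes (0). Signs turned there in HT for Ndufb10 (0.089), Ndufa9 (0.045), Ndufs7 (0.031), Ndufab1 (0.011), Ndufb4c (0.013) and Ndufs1 (0.0041), with the same values under the block. In WT they turned for Ndufb4c (0.098; 0.096 with the block), Ndufb10 (0.053 in each) and Ndufa10 (0.0018; 0.0040 with the block).

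Lithium in HT gave 0 lower with no filter, 2 with a mean of at least 100, 7 with equal library sums and 0 with only the groups compared. HT against WT under lithium gave 1 with no filter, 11 with equal sums, 1 with TMM and 5 with only the groups compared, and its difference between sexes gave 4 with no filter. With equal sums Ndufa9 was at -0.024 in WT after fluoxetine. In females alone, fluoxetine lowered 19 in HT, with Ndufa4l2 at -0.10, Ndufb10 at 0.0056 and Ndufs7 at 0.0058; lithium lowered 6 in HT, 25 were lower in HT than in WT under lithium, and 1 was lower with fluoxetine than with lithium in HT. In males alone, Ndufab1 was at 0.0035 and Ndufa9 at -0.044 after fluoxetine in WT, lithium lowered 0 in HT, and 0 were lower in HT than in WT under lithium (Ndufa4 0.016, Ndufa6 0.016). Without the 2 libraries that stood apart, lithium gave 1 in WT and 12 lower in HT, HT against WT under lithium gave 5, its difference between sexes 22 higher, and the lithium interactions gave 1 with genotype and 1 higher with sex.

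Leaving out 1 library at a time gave 30 to 33 lower after fluoxetine in HT, 33 to 34 in WT, 19 to 25 against lithium in HT and 34 to 35 in WT. Lithium in HT ranged from 0 to 12 (12 without HT vehicle female replicate 1, 0 without HT vehicle female replicate 2, 3 or 4, and 2 without HT lithium male replicate 2 or HT vehicle male replicate 5). HT against WT under lithium ranged from 1 to 2 (1 without any of 15 lithium libraries: HT females 2 to 5, HT males 1, 3, 4 and 5, WT females 1 to 3 and WT males 1 to 4), and its difference between sexes from 5 to 14 (5 without HT lithium female replicate 2 or 3, male replicate 4, WT lithium female replicate 3 or male replicate 1, 2 or 5; 6 without HT lithium female replicate 4, male replicate 2 or WT lithium female replicate 1 or 5). Signs turned for Ndufa4l2 (-0.0079 to 0.11) and Ndufab1 (-0.049 to 0.0029) in HT, and for Ndufa10 (-0.076 to 0.0065) and Ndufa9 (-0.011 to 0.023) in WT.

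Same-numbered libraries did not vary together (mean correlations -0.01 to 0.03; 13 of 59 correlated best with their own number). With the replicate block, 33 members fell after fluoxetine in HT and 34 in WT, 1 with lithium in HT, 3 in HT against WT under lithium, 26 with fluoxetine against lithium in HT and 34 in WT, and 13 differed between sexes.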
